A study of Homo sapiens with 9 samples.

Results

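The genes described here set the threshold for caspase activation: the inhibitor of apoptosis (IAP) genes XIAP, BIRC2 and BIRC3, the caspase 8 regulator CFLAR, the apoptosome scaffold APAF1, the IAP antagonist DIABLO, and the initiator caspases CASP8 and CASP9. They were chosen by symbol, and 4 of the 8, namely XIAP, BIRC2, CFLAR and APAF1, matched a row of the array through the platform's gene table, out of 14884 genes named in all. BIRC3, DIABLO, CASP8 and CASP9 matched no row by symbol or gene ID and were not analysed here, so the measured genes hold 2 IAP genes, CFLAR and APAF1 and no caspase. RNA abundance was measured on Affymetrix Human Gene 2.0 ST arrays in MDA-MB-231, an established triple-negative breast cancer line in which p53 is mutant. The groups were 3 control arrays labelled with no agent at time 0, 3 arrays of cells given 500 nM JQ1 for 12 h and 3 given 500 nM JQ1 for 24 h. JQ1 occupies the bromodomains of the BET proteins and releases them from acetylated chromatin. The controls carry no vehicle and a single time, so solvent, time in culture and JQ1 cannot be told apart, and since the labels do not tell separate cultures from repeat samples of 1 culture, the p-values reflect array-to-array spread that could be technical.

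Apoptosis is carried out by caspases, proteases that are made as inactive precursors. In the death receptor route, FADD gathers caspase 8 on the receptor, and the CFLAR proteins (c-FLIP), which resemble caspase 8 but lack its catalytic activity, join the same complex and restrain it. In the mitochondrial route, cytochrome c binds APAF1, which assembles into the apoptosome and activates caspase 9. XIAP binds and inhibits caspases directly, while BIRC2 (cIAP1) is chiefly a ubiquitin ligase of the TNF receptor complex that sustains survival signalling through RIPK1. DIABLO (SMAC) leaves the mitochondria and displaces caspases from the IAPs. CFLAR and BIRC3 (cIAP2) are textbook targets of the transcription factor NF-kB.

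The promoters of the 4 measured genes are shown because 3 of them were lower after JQ1 and 1 was higher. Each line gives the 250 bases before the most upstream annotated start, 5′ to 3′ on the plus strand, from RefSeq on GRCh38.p14. All 4 genes were found in that promoter table. Capitals mark matches on either strand to the kappaB consensus of NF-kB, to GGGCGG, known as the GC box, to CCAAT, to the TATA box letters TATAAA, to the cAMP response element TGACGTCA or to the E-box CACGTG.
CFLAR, chr2:201118466-201118715: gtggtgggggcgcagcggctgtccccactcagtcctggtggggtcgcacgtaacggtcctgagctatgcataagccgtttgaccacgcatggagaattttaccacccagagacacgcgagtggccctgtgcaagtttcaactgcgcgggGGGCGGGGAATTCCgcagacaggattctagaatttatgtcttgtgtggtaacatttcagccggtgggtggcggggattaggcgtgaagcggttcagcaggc
XIAP, chrX:123859458-123859707: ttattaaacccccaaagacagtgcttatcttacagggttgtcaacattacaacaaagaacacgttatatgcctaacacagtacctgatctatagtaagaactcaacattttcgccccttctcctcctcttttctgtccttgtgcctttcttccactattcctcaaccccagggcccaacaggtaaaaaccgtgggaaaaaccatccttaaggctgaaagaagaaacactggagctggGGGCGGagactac
BIRC2, chr11:102346964-102347213: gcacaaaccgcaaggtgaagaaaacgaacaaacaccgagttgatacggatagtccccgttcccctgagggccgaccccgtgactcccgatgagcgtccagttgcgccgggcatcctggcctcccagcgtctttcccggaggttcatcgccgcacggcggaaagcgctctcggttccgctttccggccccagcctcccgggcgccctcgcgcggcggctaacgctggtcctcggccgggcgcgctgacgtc
APAF1, chr12:98645040-98645289: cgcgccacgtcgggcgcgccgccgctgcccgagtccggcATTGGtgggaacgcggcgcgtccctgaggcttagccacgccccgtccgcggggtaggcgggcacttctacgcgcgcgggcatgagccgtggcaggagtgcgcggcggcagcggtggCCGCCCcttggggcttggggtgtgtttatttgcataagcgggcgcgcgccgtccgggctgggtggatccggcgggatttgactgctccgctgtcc
In the printed CFLAR window a kappaB match beginning at position -97 from the start overlaps a GGGCGG at -101, and both lie in the single run of capitals. CFLAR has 4 annotated windows, and the other 3 hold 0 kappaB matches. The kappaB consensus occurs in 5.21% of the 35116 annotated promoter windows of this length, and GGGCGG in 42.6%. The XIAP window, 1 of 3 for that gene, has GGGCGG at -13. The APAF1 window has GGGCGG at -95 and CCAAT at -211, each on the other strand, and CCAAT is found in 32.0% of all windows. The BIRC2 window holds no full match, although a second BIRC2 start lies further downstream and its window has GGGCGG at -134 and TGACGTCA at -167, the latter in 1.65% of all windows. The printed BIRC2 window ends in tgacgtc, so a TGACGTCA running over its edge would not be counted. Whether that is the site at -167 of the second window was not tested. The shares for TATAAA and CACGTG were 10.7% and 6.34%, and the 4 printed windows hold neither. The windows also differed in base composition, with 44.8% G and C for XIAP, 58.8% for CFLAR, 67.6% for BIRC2 and 73.6% for APAF1, beside a median of 58.0% over all windows. These matches describe sequence only.

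The arrays had medians between 4.92 and 4.96 on the log2 scale. Control 3 stood apart from controls 1 and 2: its values differed from theirs with an SD of 0.385 and 0.389 log2 over all rows, while controls 1 and 2 differed from each other with an SD of 0.213. Control 3 was closer to some JQ1 arrays than to either other control. Its SD was 0.314 and 0.343 to JQ1 12 h replicates 2 and 3 and 0.355 to JQ1 24 h replicate 2. To JQ1 12 h replicate 1 and JQ1 24 h replicates 1 and 3 it was 0.388, 0.398 and 0.404. Results are therefore given with and without control 3. Of 6 markers listed as present in the line 4 were measured, and VIM read 10.23 to 10.69, KRT18 9.78 to 10.67, CD44 7.15 to 8.11 and KRT8 6.65 to 7.30. Of 5 listed as low 3 were measured, and EPCAM read 6.07 to 6.49, ESR1 4.81 to 5.17 and PGR 3.93 to 4.32. Different probe sets have no common scale, and KRT8 read close to EPCAM. Some of these markers also moved with JQ1 in limma: KRT18 was called up at 12 h and 24 h (0.61 at both), KRT8 up at 24 h (0.39) and EPCAM down at 12 h (−0.28), and VIM was called up at both times without control 3 (0.36 and 0.38). Their part in the results was not tested. For other cell types, the leukocyte marker CD14 read 4.11 to 4.57, the fibroblast marker DCN 2.91 to 3.02 and the endothelial marker PECAM1 4.10 to 4.52. These were the only 3 of 11 such markers with a named row, and none of the 3 passed the test in either comparison with control.

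After 12 h of JQ1 the levels of CFLAR and BIRC2 fell, that of APAF1 rose, and XIAP did not pass the test. After 24 h CFLAR, BIRC2 and XIAP were all below control and APAF1 no longer passed. In limma, with 1 mean per group fitted to all 9 arrays and p-values adjusted over all genes by the Benjamini-Hochberg method, calls were made where the adjusted value was under 0.05. At 12 h 2 of the 4 genes were called down and 1 up, while 4.39% of all genes were called down and 3.54% up. At 24 h 3 were called down and 0 up, beside 6.34% and 5.17% of all genes. The median difference of the 4 genes was −0.31 at 12 h and −0.61 at 24 h, against 0.01 at both times over all genes. Both comparisons use the same 3 control arrays, and the genes were chosen with earlier results of these data known, so the counts only describe these 4 genes. Treated and control values did not overlap for 3 of the 4 genes at 12 h and for all 4 at 24 h, beside 22.2% and 26.1% of all genes.

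**Figure D1:**
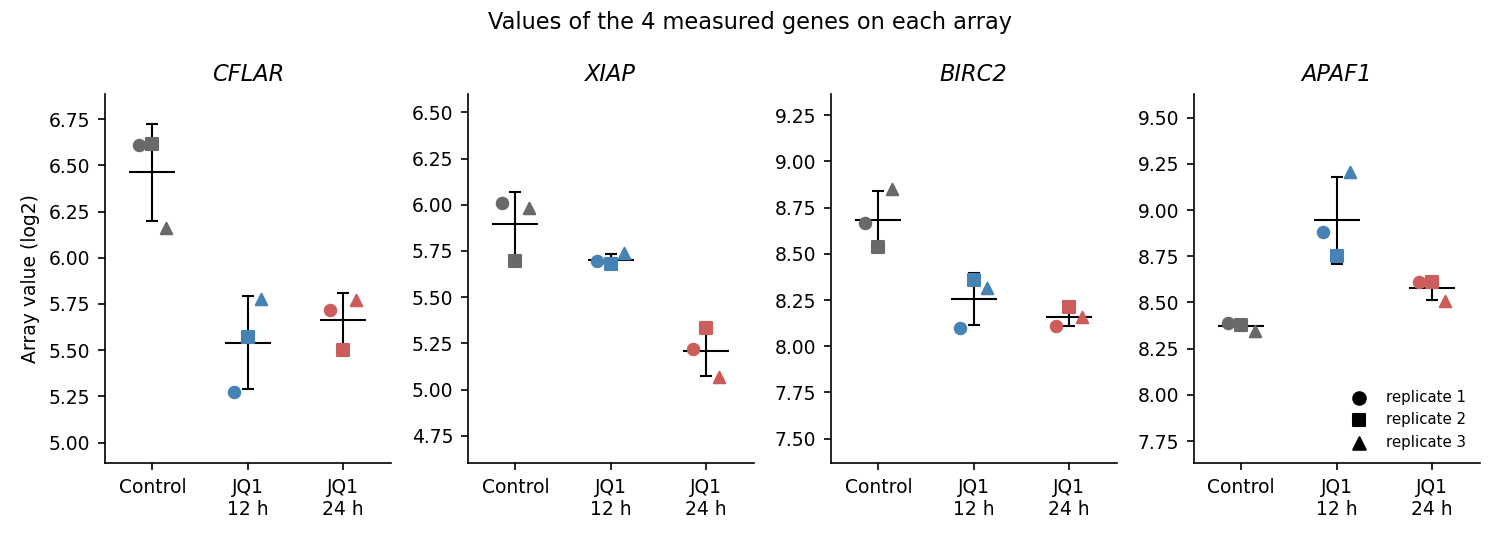
Log2 array values (y axis, each panel spanning the same 2 log2 units) of CFLAR, XIAP, BIRC2 and APAF1 in 3 control, 3 JQ1 12 h and 3 JQ1 24 h arrays; points are arrays, shaped by replicate number, and the bars give the mean and SD. Both JQ1 groups of CFLAR and BIRC2 lie below all controls, XIAP is below them at 24 h, and APAF1 is highest at 12 h.

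CFLAR, the brake on caspase 8, showed the largest change of the 4 genes at both times. Its log2 values were 6.61, 6.62 and 6.16 in controls 1, 2 and 3, 5.28, 5.57 and 5.78 in the JQ1 12 h arrays, and 5.72, 5.50 and 5.77 in the JQ1 24 h arrays. All 6 JQ1 values lay below all 3 controls, with the highest JQ1 value at 5.78 and the lowest control, control 3, at 6.16. At 12 h the mean fell from 6.46 ± 0.26 to 5.54 ± 0.25 (SD, n = 3 each), which is 1.89-fold lower (log2 difference −0.92, SE 0.16, 95% interval −1.28 to −0.56, adjusted p = 0.0099 in limma). That difference was the 200th lowest of the 14884 genes. At 24 h the mean was 5.66 ± 0.14, 1.74-fold lower than control (log2 difference −0.80, SE 0.16, interval −1.16 to −0.44, limma adjusted p = 0.014). That interval overlapped the 24 h interval of XIAP (−0.92 to −0.45), and the order of these genes was not tested.

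The 2 JQ1 groups of CFLAR overlapped, and the 24 h mean was 0.12 log2 above the 12 h mean, with an interval from −0.24 to 0.48 (limma adjusted p = 0.94). Control 3 was 0.45 log2 below the mean of the other controls for this gene. Without it the differences were −1.07 at 12 h and −0.95 at 24 h (limma adjusted p = 0.00072 and 0.0013). At 12 h CFLAR was called whichever single array was left out. At 24 h it lost the call without control 1 (adjusted p = 0.053 in limma) or control 2 (0.052), each of which leaves control 3 as 1 of only 2 controls.

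BIRC2 encodes cIAP1, and its RNA was lower in every JQ1 array than in every control. It read 8.67, 8.54 and 8.85 in controls 1, 2 and 3, 8.10, 8.36 and 8.31 at 12 h and 8.11, 8.21 and 8.16 at 24 h. The gap between the groups was narrow at 12 h, where replicate 2 came closest to control 2, and the 24 h arrays were the tightest. The mean went from 8.69 ± 0.16 in the controls to 8.26 ± 0.14 at 12 h (SD, n = 3 each), 1.35-fold lower (log2 difference −0.43, SE 0.10, interval −0.66 to −0.20, limma adjusted p = 0.034). At 24 h it was 8.16 ± 0.05, 1.44-fold lower (log2 difference −0.53, SE 0.10, interval −0.76 to −0.30, limma adjusted p = 0.011).

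The 12 h call of BIRC2 was close to the threshold. It was lost when any array but control 2 or control 3 was left out, and with the replicate number as a block (adjusted p = 0.054 in limma), with adjusted p-values up to 0.11 in limma. The 24 h call held in all 18 alternative settings (limma adjusted p from 0.0021 to 0.049). Control 3 was the highest control for BIRC2, 0.24 log2 above the mean of the other 2. Without it the differences were −0.35 and −0.44 (limma adjusted p = 0.033 and 0.0099). Between 12 h and 24 h the difference was −0.10, with an interval from −0.33 to 0.13.

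XIAP, the IAP that inhibits caspases by direct binding, was lower than control at 24 h and overlapped the controls at 12 h. Its values were 6.01, 5.69 and 5.98 in controls 1, 2 and 3, 5.70, 5.68 and 5.74 at 12 h, and 5.22, 5.34 and 5.07 at 24 h. All 3 arrays of the 12 h group sat at the level of control 2, the lowest control, and all 3 of the 24 h group lay below every other array. The mean fell from 5.89 ± 0.17 to 5.21 ± 0.13 at 24 h (SD, n = 3 each), 1.61-fold lower (log2 difference −0.69, SE 0.10, interval −0.92 to −0.45, limma adjusted p = 0.0040). The 24 h call held in all 18 alternative settings, and without control 3 the difference was −0.64 (limma adjusted p = 0.0032). At 12 h the difference was −0.19 with an interval from −0.42 to 0.04 (limma adjusted p = 0.35).

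Between 12 h and 24 h the XIAP mean was 0.50 log2 lower at 24 h (log2 difference −0.50, SE 0.10, interval −0.73 to −0.26), and these groups did not overlap, as held for 12.9% of all genes. This was the 139th lowest difference between the JQ1 groups among the 14884 genes. Its unadjusted p was 0.0010 and its limma adjusted p 0.38, so the step from 12 h to 24 h did not pass over all genes. In that comparison limma called 1 gene of the whole table (0.00672%) and 0 of the 4 genes, while 995 genes and 2 of the 4, XIAP and APAF1, had an unadjusted p under 0.05.

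APAF1, the scaffold of the apoptosome, was the only gene of the 4 that was higher after JQ1. It read 8.39, 8.38 and 8.34 in controls 1, 2 and 3, 8.88, 8.75 and 9.21 at 12 h, and 8.61, 8.61 and 8.51 at 24 h. The controls were nearly identical, all 6 JQ1 arrays lay above them, and JQ1 12 h replicate 3 was the highest. At 12 h the mean rose from 8.37 ± 0.02 to 8.94 ± 0.24 (SD, n = 3 each), 1.49-fold (log2 difference 0.57, SE 0.11, interval 0.32 to 0.82, limma adjusted p = 0.016). At 24 h the mean was 8.58 ± 0.06 and the difference of 0.21 did not pass (SE 0.11, interval −0.04 to 0.46, limma adjusted p = 0.30).

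For APAF1 the 24 h arrays all lay below the 12 h arrays, with a difference of −0.37 (SE 0.11, interval −0.62 to −0.12). The unadjusted p was 0.0086 and the limma adjusted p 0.51, so this step was not called either. Control 3 differed from the other controls by only −0.04 log2, and without it the 12 h difference was 0.56 (limma adjusted p = 0.011). The 12 h call was lost without control 1 or control 2 (adjusted p = 0.053 and 0.054 in limma), when the difference stayed at 0.58, and without JQ1 12 h replicate 3 the difference was 0.44.

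**Figure D2:**
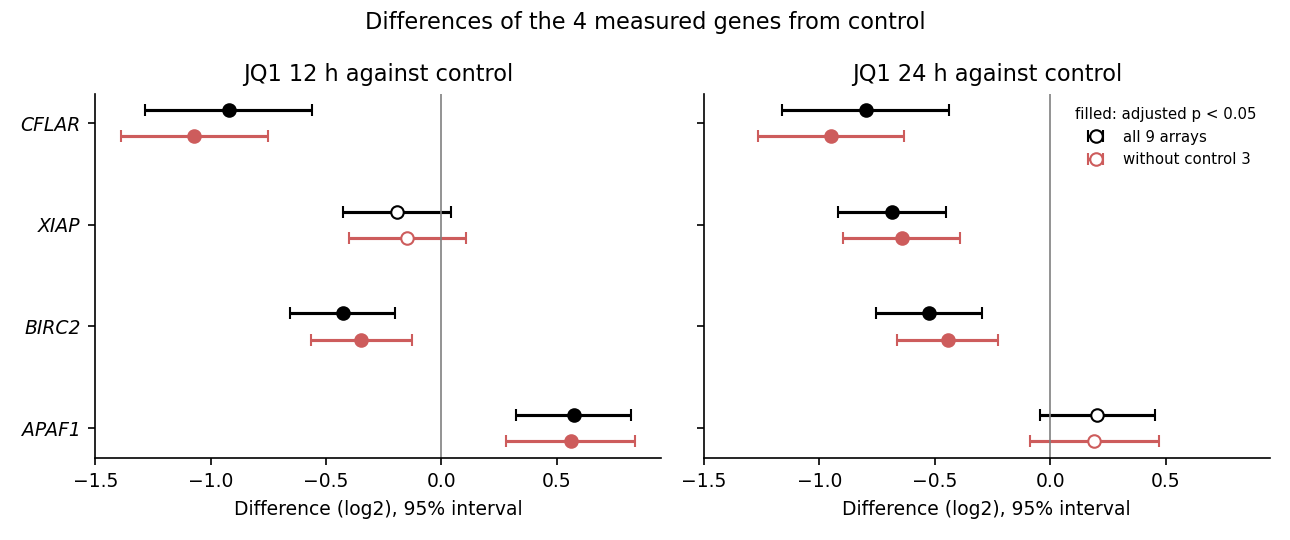
Log2 differences from control (x axis) with 95% intervals for CFLAR, XIAP, BIRC2 and APAF1 at 12 h (left) and 24 h (right), from all 9 arrays (black) and without control 3 (red); filled points have a limma adjusted p under 0.05. Leaving out control 3 moved no filled point to open or back, with CFLAR moving furthest, from −0.92 to −1.07 at 12 h.

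The rest of the IAP family was compared from a fixed list. BIRC5 (survivin), BIRC6 and BIRC7 were measured of 5 listed, and limma called 0 at either time, with 0 at an unadjusted p under 0.05. Over all 14884 genes, 3208 had an unadjusted p under 0.05 at 12 h and 3725 at 24 h. BIRC5, which acts in chromosome segregation as well as survival, read 7.98, 8.15 and 8.76 in controls 1, 2 and 3, 8.58, 8.72 and 8.28 at 12 h and 7.92, 8.26 and 8.10 at 24 h. Control 3 had the highest BIRC5 value of all 9 arrays, and both JQ1 groups overlapped the controls. The 24 h arrays lay below the 12 h arrays (difference −0.43, limma adjusted p = 0.76). Such groups did not overlap for 12.9% of all genes. Against control the values were as follows. The differences from control were 0.23 (SE 0.20, limma adjusted p = 0.60) at 12 h and −0.20 (SE 0.20, 0.61) at 24 h. Without control 3 the 12 h difference was 0.46 and was called (limma adjusted p = 0.049). BIRC6, a giant ubiquitin-conjugating IAP, differed by −0.17 and 0.10, and BIRC7 by 0.21 and 0.17, with limma adjusted p-values from 0.27 to 0.75. XAF1, an interferon-inducible antagonist of XIAP, read 4.84 to 5.08 on all arrays and differed from control by −0.09 (interval −0.26 to 0.08) and −0.05 (interval −0.23 to 0.12). None of the 9 other caspases listed matched a row, and they were not analysed here.

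Upstream of caspase 8, 8 of 18 listed death receptor signalling genes were measured. At 12 h 0 were called by limma (2 at an unadjusted p under 0.05). At 24 h 1 was called up (2 at an unadjusted p under 0.05), beside 5.17% of all genes called up. Over all 14884 genes, 3208 had an unadjusted p under 0.05 at 12 h and 3725 at 24 h. TRADD, the adaptor of TNF receptor 1, read 7.74, 7.65 and 7.52 in controls 1, 2 and 3, 8.23, 7.98 and 7.99 at 12 h and 8.47, 7.91 and 8.50 at 24 h. All JQ1 values were above the controls, and JQ1 24 h replicate 2 was the lowest of them. The 24 h difference was 0.66 (SE 0.16, limma adjusted p = 0.027), and this call needed both of controls 1 and 2 and both of JQ1 24 h replicates 1 and 3, since leaving out any of them gave limma adjusted p-values of up to 0.11. FADD, which recruits caspase 8 and is named although not called, differed by −0.03 (interval −0.23 to 0.17) and 0.06 (interval −0.14 to 0.26).

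Without control 3, 2 more genes of this list were called down at both times. They are named after their values were seen: RBCK1 (HOIL-1), a subunit of the linear ubiquitin ligase, and CYLD, a deubiquitinase of the same complexes. RBCK1 read 10.08, 10.06 and 8.91 in controls 1, 2 and 3 and 9.02 to 9.31 on the JQ1 arrays, so control 3 lay below all of them. Its differences were −0.63 and −0.43 with all arrays and −1.02 and −0.81 without control 3. CYLD read 9.39, 9.37 and 8.61 in the controls and 8.72 to 9.02 on the JQ1 arrays, with differences of −0.28 and −0.37, or −0.53 and −0.63 without control 3.

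Of the genes for mitochondrial release and IAP antagonism, 5 of 7 were measured. At 12 h 0 were called and at 24 h 1 was called up, beside 5.17% of all genes called up at 24 h. An unadjusted p under 0.05 was found for 2 at 12 h and 3 at 24 h, and 4 of the 5 were higher at each time. ENDOG differed by 0.28 and 0.32 and HTRA2 by 0.11 and 0.26, not called (limma adjusted p from 0.057 to 0.64). Both are named after their values were seen. The called gene was AREL1, a ubiquitin ligase known to act against SMAC, HTRA2 and other IAP antagonists. Its known role is therefore that of a death inhibitor. It read 9.38, 9.43 and 9.65 in the controls and 9.74 to 9.88 on the JQ1 arrays, with differences of 0.30 (limma adjusted p = 0.070) at 12 h and 0.32 (0.043) at 24 h. The 24 h call held without control 3 and with no other single array removed (limma adjusted p up to 0.15). In the execution list, 4 of 8 genes were measured and limma called 0 at either time (1 at 12 h and 3 at 24 h had an unadjusted p under 0.05). Over all 14884 genes, 3208 at 12 h and 3725 at 24 h had an unadjusted p under 0.05. Without control 3 PARP1, a nuclear caspase substrate, and ACIN1, which is linked to chromatin condensation in apoptosis, were called up at both times, at 0.65 and 0.54 for PARP1 and 0.55 and 0.62 for ACIN1. In that fit 9.57% and 9.61% of all genes were called up. With all arrays the differences were 0.39 and 0.28 for PARP1 and 0.37 and 0.44 for ACIN1, not called. Control 3 was 0.78 log2 above the other controls for PARP1 and 0.54 above for ACIN1. For PARP1 control 3 read 9.96, above all JQ1 arrays (9.63 to 9.93). PARP1 and ACIN1 are named after their values were seen.

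The list of survival genes known as NF-kB targets, to which CFLAR is usually counted, had 5 of 9 measured genes. BCL2A1, an anti-apoptotic BCL2 relative, was the only gene called, down at both times, beside 4.39% and 6.34% of all genes called down. It read 9.30, 9.17 and 7.65 in controls 1, 2 and 3, 7.03, 7.00 and 7.24 at 12 h and 6.50, 6.12 and 6.01 at 24 h. All JQ1 arrays were below control 3, which was itself 1.58 log2 below the other controls. The list's median difference was −0.57 at 12 h and −0.60 at 24 h, beside 0.01 over all genes.

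Without control 3 the same list had 4 of 5 genes called down at each time, and its median was −1.01 and −1.04. The further genes, named after their values were seen, were NFKB2, TRAF1 and TNIP1. The list's remaining measured gene, IER3, also named after its values were seen, was not called in either fit. It differed by −0.05 at 12 h and 0.07 at 24 h with all arrays. Without control 3 the IER3 differences were −0.43 and −0.31 (limma adjusted p = 0.086 and 0.22). TRAF1, which binds BIRC2 at TNF receptors, read 6.90, 6.98 and 5.01 in controls 1, 2 and 3 and 4.91 to 5.70 on the JQ1 arrays. NFKB2 read 8.58, 8.45 and 7.21 in the controls and 7.37 to 7.60 on the JQ1 arrays, so for it control 3 lay below all JQ1 arrays. Of all genes, 20.1% were called at 12 h and 20.9% at 24 h without control 3, against 7.93% and 11.5% with it. By direction, 10.5% and 11.3% of all genes were called down without control 3, and 9.57% and 9.61% up. CFLAR differed from NFKB2 in this respect, since its control 3 value stayed above all JQ1 values, and for BIRC2 and XIAP control 3 read above the other controls' mean, by 0.24 and 0.13 log2. What sets control 3 apart was not tested.

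**Figure D3:**
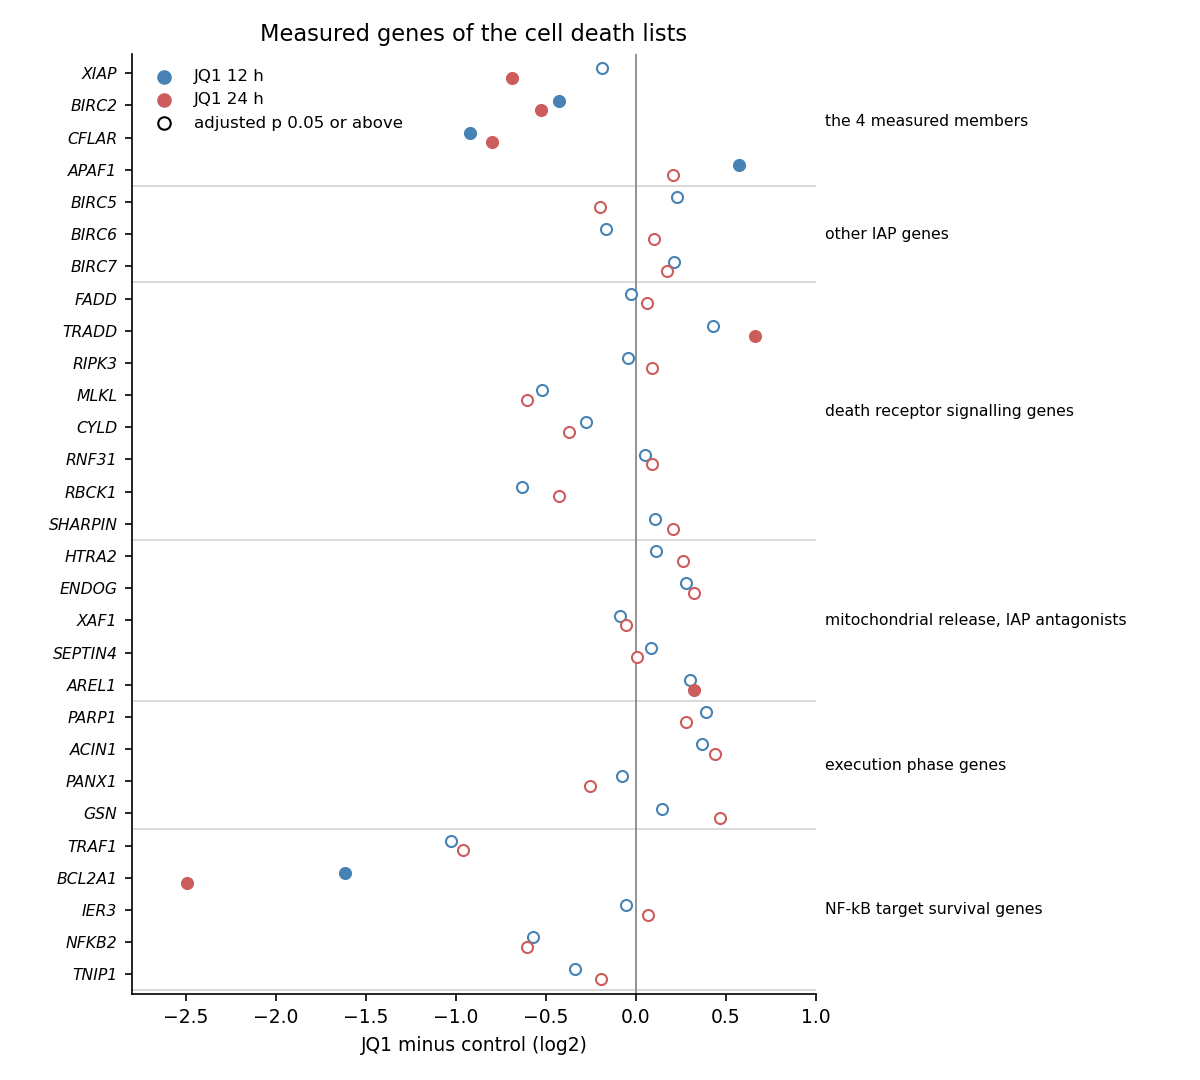
Differences from control on the log2 scale (x axis) at 12 h (blue) and 24 h (red) for the 4 measured genes and the 25 measured genes of 5 cell death lists, with filled points for a limma adjusted p under 0.05. Outside the 4 genes, filled points appear only for TRADD and AREL1 at 24 h and for BCL2A1 at both times, which reached −2.50 at 24 h.

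The genes with a named row lying nearest to each measured gene in RefSeq order were set beside it, 3 on either side. Genes without a named row, BIRC3 and CASP8 among them, were skipped, so a listed neighbour need not be adjacent on the chromosome. Around CFLAR on chromosome 2, PPIL3, a peptidylprolyl isomerase gene, fell as well, by 0.72 log2 at 12 h and 1.11 at 24 h (limma adjusted p = 0.0092 and 0.0011), while NIF3L1, which lies between them in this order, was not called. CFLAR-AS1, annotated antisense to CFLAR and named here after its values were seen, read 4.33, 4.09 and 3.75 in the controls and 3.59 to 3.78 on the JQ1 arrays. Its differences were −0.40 and −0.38 and were not called (limma adjusted p = 0.11 at both times), and they were −0.56 and −0.54 and called without control 3 (limma adjusted p = 0.0040 and 0.0047). Next to XIAP, the cohesin gene STAG2 fell by 0.36 log2 at 12 h and 0.51 at 24 h (limma adjusted p = 0.041 and 0.0079), and the 12 h call was lost when any array but control 3 or JQ1 12 h replicate 3 was left out. Its values were 8.46, 8.44 and 8.50 in the controls and 7.93 to 8.29 on the JQ1 arrays. At 12 h STAG2 was called and XIAP was not, but their 12 h intervals overlapped (−0.56 to −0.16 and −0.42 to 0.04). Whether these genes differed in timing was not tested.

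Near BIRC2 on chromosome 11, the centrosomal gene CEP126 fell by 0.50 log2 at 12 h and 0.45 at 24 h (limma adjusted p = 0.018 and 0.021). Leaving out control 1, or JQ1 12 h replicates 2 or 3 at 12 h and JQ1 24 h replicates 1 or 3 at 24 h, ended that call. YAP1, a coactivator controlled by the Hippo pathway, was not called at 12 h (−0.64, limma adjusted p = 0.058) and fell at 24 h (−0.80, 0.020), and the 24 h call did not survive removal of control 1, of control 2, or of JQ1 24 h replicate 1 or 3. Control 3 read 8.58 for YAP1, beside 9.24 and 9.33 in controls 1 and 2, and without it YAP1 was called at both times (−0.88 and −1.03, limma adjusted p = 0.00019 and 0.000072). TMEM123, next on the other side, read 5.56 to 5.93 on all arrays and differed by −0.01 and −0.09. Around APAF1 on chromosome 12, 0 of the 6 neighbours were called at either time by limma (1 at 12 h and 2 at 24 h had an unadjusted p under 0.05). That held for 3208 of all 14884 genes at 12 h and 3725 at 24 h. TMPO, which encodes a nuclear lamina protein, differed by −0.72 at 24 h (limma adjusted p = 0.18), but control 3 was 1.19 log2 above the other controls for it, and without control 3 the difference was −0.32 (limma adjusted p = 0.27). Its antisense neighbour TMPO-AS1, named here after its values were seen, was the 1 of 6 called at 12 h without control 3 (0.57, limma adjusted p = 0.011), against 0.16 with it, and 0 of 6 were called at 24 h. Without control 3 the called neighbours also came to include STRADB beside CFLAR and C1GALT1C1 beside XIAP at both times and TMEM237 beside CFLAR at 12 h, all up and all named after their values were seen. That made 4 of 6 neighbours of CFLAR called at 12 h and 3 at 24 h, and 2 of 6 at each time for XIAP and for BIRC2. In the same fit 20.1% of all genes were called at 12 h and 20.9% at 24 h.

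**Figure D4:**
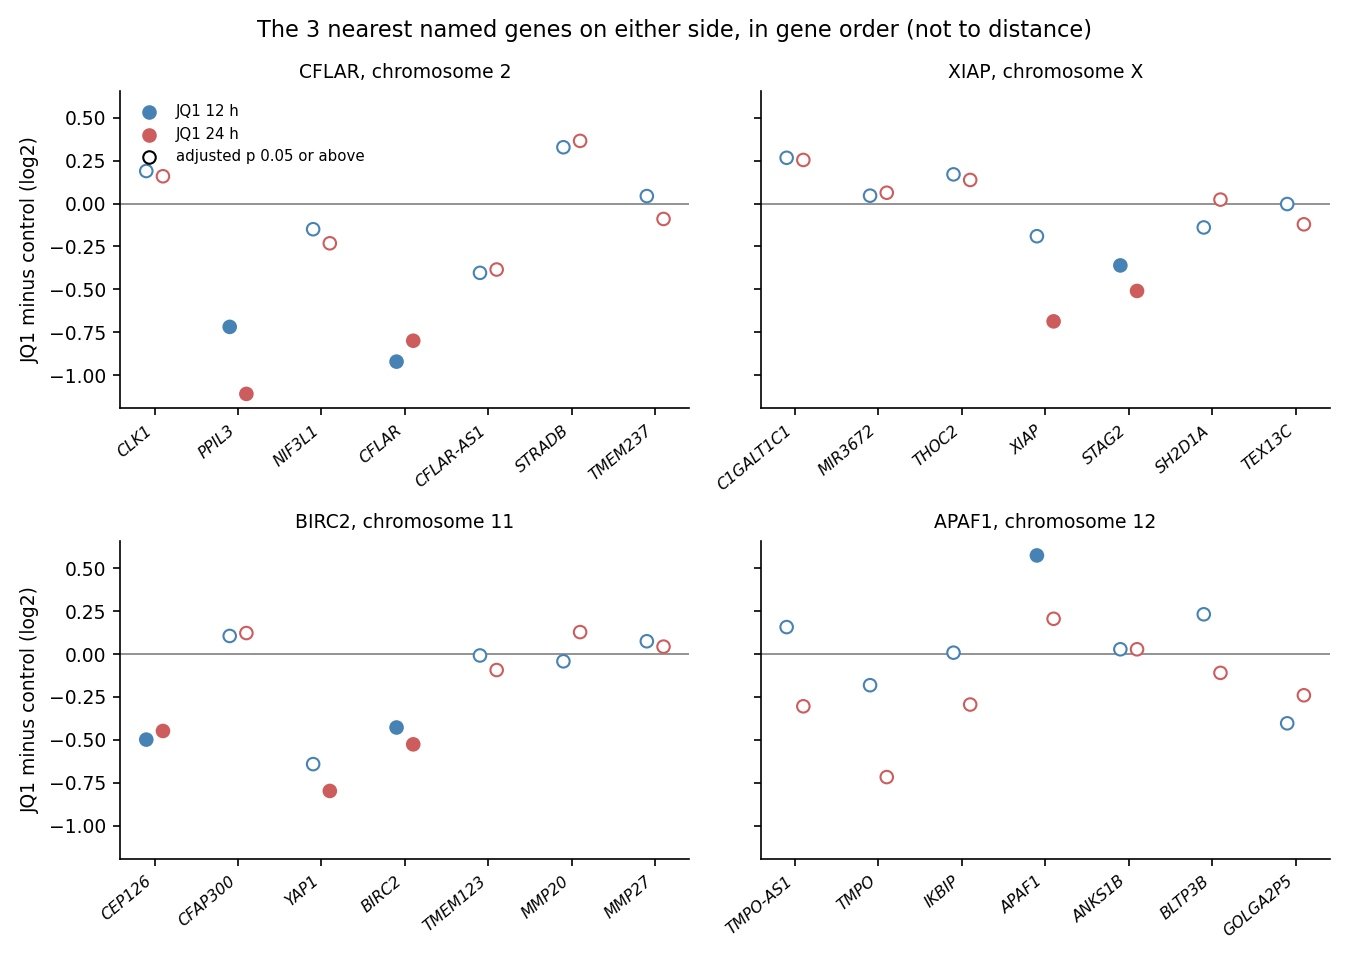
Differences from control on the log2 scale (y axis) at 12 h (blue) and 24 h (red) for CFLAR, XIAP, BIRC2, APAF1 and the 3 genes with a named row on either side of each, placed in gene order and not by distance. Genes without a named row are skipped. Filled points have a limma adjusted p under 0.05. PPIL3 lies below zero beside CFLAR, STAG2 beside XIAP and CEP126 and YAP1 near BIRC2, and APAF1 alone is filled in its panel, where all 9 arrays were used.

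The genes whose values ran most like each measured gene over the 9 arrays differed between the 4. These correlations describe 9 arrays that fall in 3 groups and share their normalization, and they carry no test. CFLAR was most like TMEM267 (Pearson r = 0.991), CFAP251 (0.988) and INTS6 (0.987), a subunit of the Integrator complex. BIRC2 was most like COMMD2 (0.989), the mitochondrial ribosomal gene MRPL15 (0.988) and the centrosomal gene CDK5RAP2 (0.987). XIAP was most like CDCA8 (0.963), which encodes the chromosomal passenger protein borealin, ECT2 (0.958), a RhoGEF of cytokinesis, and ZNF860 (0.953). CDCA8 read 9.15, 9.16 and 9.47 in the controls, 8.94, 8.92 and 8.92 at 12 h and 8.09, 8.41 and 7.93 at 24 h, so that, as for XIAP, all 24 h arrays were lowest and replicate 2 was the highest of them. APAF1 was most like SIPA1L2 (0.966), TRIM49B (0.951) and PGM2L1 (0.949). SIPA1L2 read 6.73, 6.59 and 6.51 in the controls, 7.26, 7.27 and 7.53 at 12 h and 6.86, 6.87 and 6.77 at 24 h, so that here too the 12 h arrays were highest. CDCA8 and SIPA1L2 were picked by correlation over these same values, so such shared orders come largely with the choice.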

How the data were processed

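The authors deposited 1 table of log2 values with 53617 rows and 9 columns, 1 per array. The log2 unit was taken from the deposited values (2.01 to 13.88). The submitters' processing notes name Transcriptome Analysis Console; the version, background correction and the normalization are not given in the sources used here. If arrays were normalized against each other, changes are relative to the other genes, and a change in total RNA per cell is lost. No detection calls were used, and the number of arrays limits the precision.

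Gene symbols came from the platform's gene table (16098 with 1 symbol, 0 with several, 37519 unnamed here), and each gene was represented by its row with the highest mean. All 14884 genes matched the RefSeq table of GRCh38.p14 by gene ID; each of the 4 measured genes had 1 row. The test was that of limma 3.58.1 under R 4.3.3 (lmFit and eBayes, all 9 arrays, no low-value filter), after a check on simulated data. Intervals are 95% intervals of the moderated fit. Members, lists and rules were chosen with earlier results of these data known. Genes named are the 4 members, the other IAP genes and XAF1, up to 4 called genes per list, the neighbours and the 3 most correlated genes of each. The measured cell type markers and FADD, which was not called, are named in addition. Others are said to be named after their values were seen.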

Additional observations from a re-analysis of the deposited data

How the results depend on the processing

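The directions of CFLAR, BIRC2, XIAP and APAF1 against control were the same in all 18 alternative settings. XIAP and BIRC2 at 24 h and CFLAR at 12 h were called in all 18, CFLAR at 24 h in 16, APAF1 at 12 h in 15 and BIRC2 at 12 h in 7. BIRC2 at 12 h (log2 −0.43) lost its call with the replicate block (limma adjusted p = 0.054), all rows of the table (0.073), an intensity trend (0.053) or only the 2 groups compared (0.099), the last of which also ended the call of APAF1 (0.57, adjusted p = 0.061 in limma) and left 1 of the 4 genes called. Leaving out 1 array gave differences at 12 h of −0.50 to −0.35 for BIRC2 and 0.44 to 0.67 for APAF1, with 1 to 3 of the 4 genes called, and at 24 h of −0.95 to −0.72 for CFLAR. With 1 array left out, CFLAR at 24 h against 12 h ranged from −0.011 to 0.24, reversing without JQ1 12 h replicate 1, BIRC5 at 24 h from −0.36 to 0.029, reversing without control 3, and BIRC6 at 24 h from −0.066 to 0.20, reversing without JQ1 24 h replicate 2; none of these was called. The number of genes called ranged from 543 to 2986 at 12 h, 786 to 3111 at 24 h and 1 to 22 between the JQ1 groups when an array was left out. It was 577 and 994 against control with only the 2 groups compared, 3498, 3764 and 14 with array weights, and 3 between the JQ1 groups with all rows. Without control 3, a count added after seeing the data, the lists had 1 and 0 other IAP genes called at 12 h and 24 h, 2 and 3 death receptor genes, 1 and 1 mitochondrial release genes, 2 and 2 execution genes and 4 and 4 NF-kB target genes. Of all genes, 20.1% and 20.9% were called in that fit. The fewer arrays or groups in a fit leave fewer degrees of freedom; the cause of the other shifts was not tested. Replicate numbers showed no consistent pairing of the arrays: deviations of same-numbered arrays correlated between −0.32 and 0.22, over 0.1 in 2 of 9 pairs, and 2 of 9 arrays correlated best with their own number. With so few arrays per group, this cannot exclude that same-numbered arrays were handled together. With the block 967 genes were called at 12 h and 1478 at 24 h.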
